A study of Homo sapiens with 28 samples.

Results

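The Hippo feedback genes described here are LATS1, LATS2, AJUBA, AMOTL1, AMOTL2 and NF2, which are 6 genes chosen by name. H3K27ac, the histone acetylation found at active promoters and enhancers, was mapped by ChIP-seq in SW872, an established human liposarcoma line. Their members in the data are the 658 peaks, of 654580 in 14 peak lists, whose summits lay within 50 kb of the start site of one of these genes. Of these, 93 had summits within 2 kb and are called promoter peaks.

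The 14 lists come from 7 constructs with 2 libraries each. All 7 groups are stable transductants of the same line. They carried a fusion (TAZ-CAMTA1 or YAP-TFE3), a constitutively active form (TAZ4SA or YAP5SA), the partner that a fusion is named after (CAMTA1 or TFE3), or an empty vector as control. The labels say that cells were near confluence at collection except those with CAMTA1, whereas the ChIP section of the study's methods gives near confluence for all constructs, so the density of the CAMTA1 cells is uncertain. The antibody field of the labels gives H3K27ac for all 14 libraries, as do the methods, but the extraction text beside it describes only a precipitation of Flag-tagged proteins. A library is named below by its label and replicate number, such as YAP5SA 1. The peak names inside the lists carry a construct of their own, and in 14 of 14 lists it is not the one in the label. Lists labelled empty vector carry CAMTA1 in the names, those labelled CAMTA1 carry TAZ-CAMTA1, those labelled TAZ-CAMTA1 carry TAZ4SA, and those labelled TAZ4SA carry the empty vector. Lists labelled YAP5SA carry TFE3, those labelled TFE3 carry YAP-TFE3, and those labelled YAP-TFE3 carry YAP5SA. Groups here follow the labels, and for some of the comparisons that depend on which construct is which the values by the peak names are also given. The 2 libraries of a label stay together under both. The lists held between 5721 peaks (TFE3 1) and 102009 peaks (TAZ4SA 1), and read depth was not given, so peaks were compared by their rank within a list. Rank 1 is the peak with the highest −log10 p. List lengths differed widely, so for some comparisons ranks were also taken as a percent of the list. The other list of the label TFE3 held 47308 peaks, so TFE3 1 stood apart from its replicate.

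In the Hippo pathway, LATS1 and LATS2 phosphorylate the co-activators YAP and TAZ, which keeps them out of the nucleus. NF2 (merlin) acts upstream of these kinases, AJUBA is a LIM-domain scaffold that restrains them, and the angiomotin-like proteins AMOTL1 and AMOTL2 bind YAP and TAZ at junctions and in the cytoplasm. Several of these genes are known to be transcribed by YAP and TAZ with the TEAD factors, which makes a negative feedback loop. TAZ4SA and YAP5SA lack serines that LATS kinases phosphorylate, and the fusions join the N-terminal part of TAZ or YAP to part of CAMTA1 or TFE3.

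The proximal promoters of these genes differ in the letters that TEAD factors are known to bind, and 4 windows that hold a searched motif are shown for that reason. The sequences are RefSeq windows of 300 bases on GRCh38.p14, from 250 bases before to 50 after a start site. They are not on the build of the peak lists, and no coordinate was carried from one build to the other. All 6 symbols matched, with 10 windows. Capitals mark GGAATG (the TEAD motif), TGANTCA (AP-1) or CACGTG (the E-box bound by TFE3 and related factors), each searched on both strands, and no marked motifs overlap.
LATS2, chr13:21061537-21061836, minus strand: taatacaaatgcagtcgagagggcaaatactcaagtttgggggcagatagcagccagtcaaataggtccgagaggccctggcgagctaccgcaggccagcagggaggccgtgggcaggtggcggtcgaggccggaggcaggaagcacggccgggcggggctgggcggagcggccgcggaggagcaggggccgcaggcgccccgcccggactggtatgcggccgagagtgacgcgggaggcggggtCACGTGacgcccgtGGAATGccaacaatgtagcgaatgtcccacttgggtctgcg
AMOTL2, chr3:134374398-134374697, minus strand: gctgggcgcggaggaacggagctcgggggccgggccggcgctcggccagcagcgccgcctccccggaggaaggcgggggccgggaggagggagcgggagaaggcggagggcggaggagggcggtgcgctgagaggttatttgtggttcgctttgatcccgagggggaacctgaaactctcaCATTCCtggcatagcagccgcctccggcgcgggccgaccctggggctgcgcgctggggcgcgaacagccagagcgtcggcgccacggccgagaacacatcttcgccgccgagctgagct
AJUBA, chr14:22976793-22977092, minus strand: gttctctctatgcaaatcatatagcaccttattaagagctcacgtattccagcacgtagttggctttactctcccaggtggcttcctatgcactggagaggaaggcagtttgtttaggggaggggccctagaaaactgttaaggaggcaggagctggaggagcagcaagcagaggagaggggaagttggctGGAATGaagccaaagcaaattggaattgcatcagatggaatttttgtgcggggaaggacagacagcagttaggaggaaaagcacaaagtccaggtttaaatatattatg
LATS1, chr6:149718052-149718351, minus strand: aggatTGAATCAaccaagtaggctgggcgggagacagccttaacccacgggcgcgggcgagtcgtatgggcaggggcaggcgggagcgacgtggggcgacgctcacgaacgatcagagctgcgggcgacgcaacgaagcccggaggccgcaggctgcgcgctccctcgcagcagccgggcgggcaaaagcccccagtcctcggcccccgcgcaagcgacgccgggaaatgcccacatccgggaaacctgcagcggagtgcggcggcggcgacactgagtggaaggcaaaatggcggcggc
The LATS2 window holds a TEAD motif that begins at position 10 of the transcript and an E-box that begins at −5. The AMOTL2 and AJUBA windows hold a TEAD motif at −69 and −59. RefSeq lists a further AMOTL2 promoter 970 bases upstream and a further AJUBA promoter 5709 bases upstream, neither with a searched motif. The AJUBA motif is thus in the window further into the gene. Which of the windows belongs to the start site used for the peaks was not determined. These motifs are therefore not placed at the promoter peaks ranked below. The LATS1 window holds an AP-1 motif at −245. No searched letters stand in the windows of NF2 or AMOTL1. The TEAD letters were in 3 of the 10 windows of these genes and in 14.03% of the 35116 windows in the table, against 7.71% for AP-1 and 7.26% for the E-box, each in 1 of the 10. A match is a description of the letters only.

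Promoter acetylation was found at nearly every gene in nearly every list. A promoter peak was present in 81 of 84 combinations of gene and list. The share over other promoters was not computed, so this count does not set these genes apart. LATS1, LATS2, AJUBA and AMOTL2 had one in 14 of 14 lists. NF2 had one in 13, all but TFE3 1, and AMOTL1 in 12, all but TFE3 1 and TAZ-CAMTA1 1. Those are the shortest lists, with 5721 and 21748 peaks. Without TFE3 1, 77 of 78 combinations had a peak. Limiting each list to its strongest 5721 peaks kept the promoters of LATS1, AJUBA and AMOTL2 in 14 lists, NF2 in 12, LATS2 in 10 and AMOTL1 in 0, or 64 combinations in all.

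**Figure D1:**
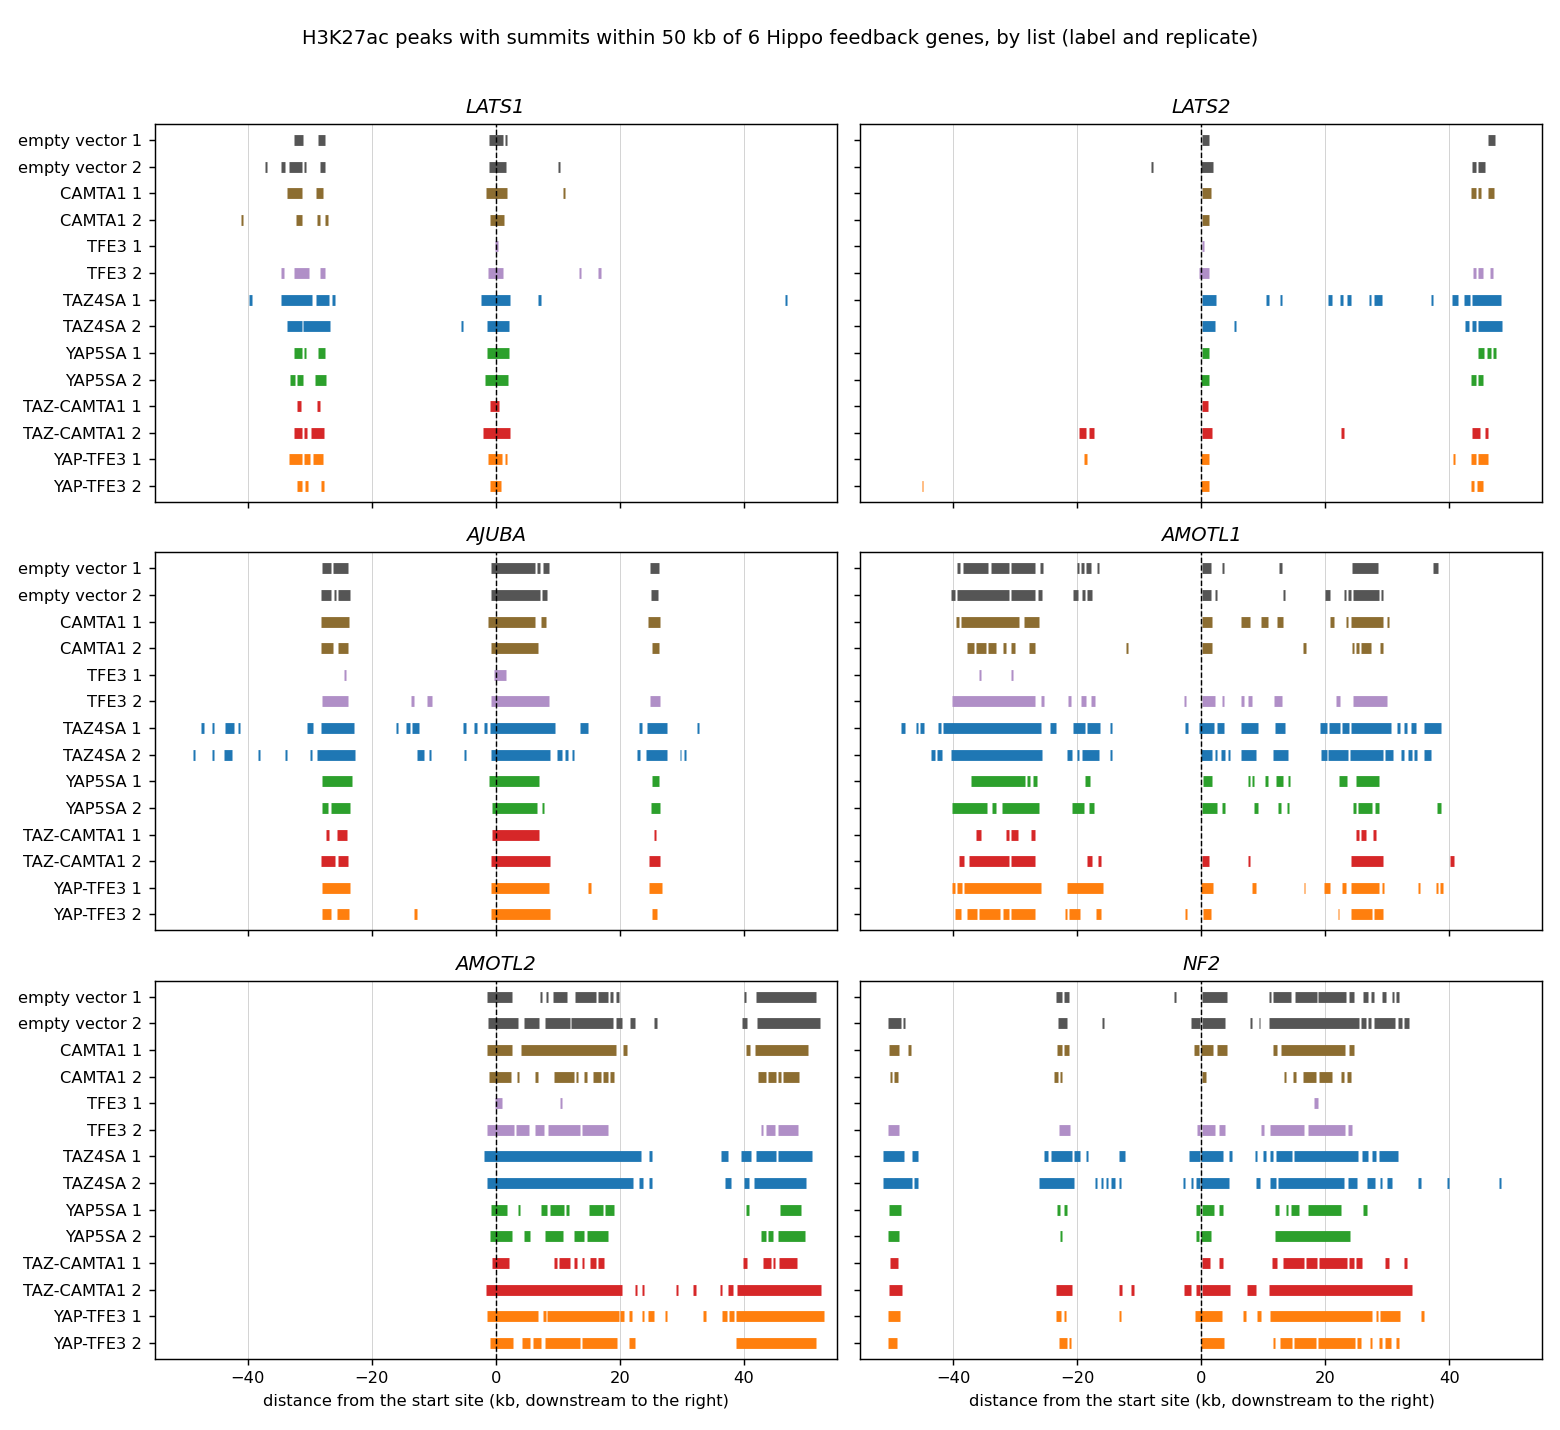
Each bar is an H3K27ac peak with its summit within 50 kb of the start site (dashed line) of the named gene, drawn by distance in kb in the direction of transcription, with a row for each list and a colour for each label. AMOTL2 and NF2 were covered mostly downstream of the start, LATS2 held a narrow promoter peak, and TFE3 1 had few peaks at any gene.

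The 6 promoters differed in rank. The median rank over the lists with a peak was 619 at AMOTL2, 1121 at AJUBA, 1439 at LATS1, 1540 at NF2, 3082 at LATS2 and 11805 at AMOTL1. AMOTL2 had the strongest of the 6 promoter peaks in 7 lists, AJUBA in 4 and LATS1 in 3. Neighbours near the top of this order were not separated by their spread over lists, since AMOTL2 ranked ahead of AJUBA in 9 of 14 lists, AJUBA ahead of LATS1 in 8 of 14, and LATS1 ahead of NF2 in 7 of 13. The lower steps were steadier. NF2 ranked ahead of LATS2 in 10 of 13 lists, AMOTL2 ahead of LATS2 in 14 of 14, and LATS2 ahead of AMOTL1 in 12 of 12. Set beside the 3269 genome tiles of 4 kb with a summit in all 14 lists, 12.8% of tiles had a better median rank than AMOTL2, 22.5% than AJUBA, 28.4% than LATS1, 30.3% than NF2, 54.2% than LATS2 and 98.99% than AMOTL1. The medians of AMOTL1 and NF2 are over 12 and 13 lists. Tiles were kept only with a summit in every list, the shortest included, which favours tiles with strong peaks. AMOTL1 and NF2 would not be kept by that rule, since each lacks a promoter peak in some list. The low place of AMOTL1 among these tiles therefore cannot be separated from how they were chosen. For all 6 genes, the percents are not positions among genome tiles in general.

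**Figure D2:**
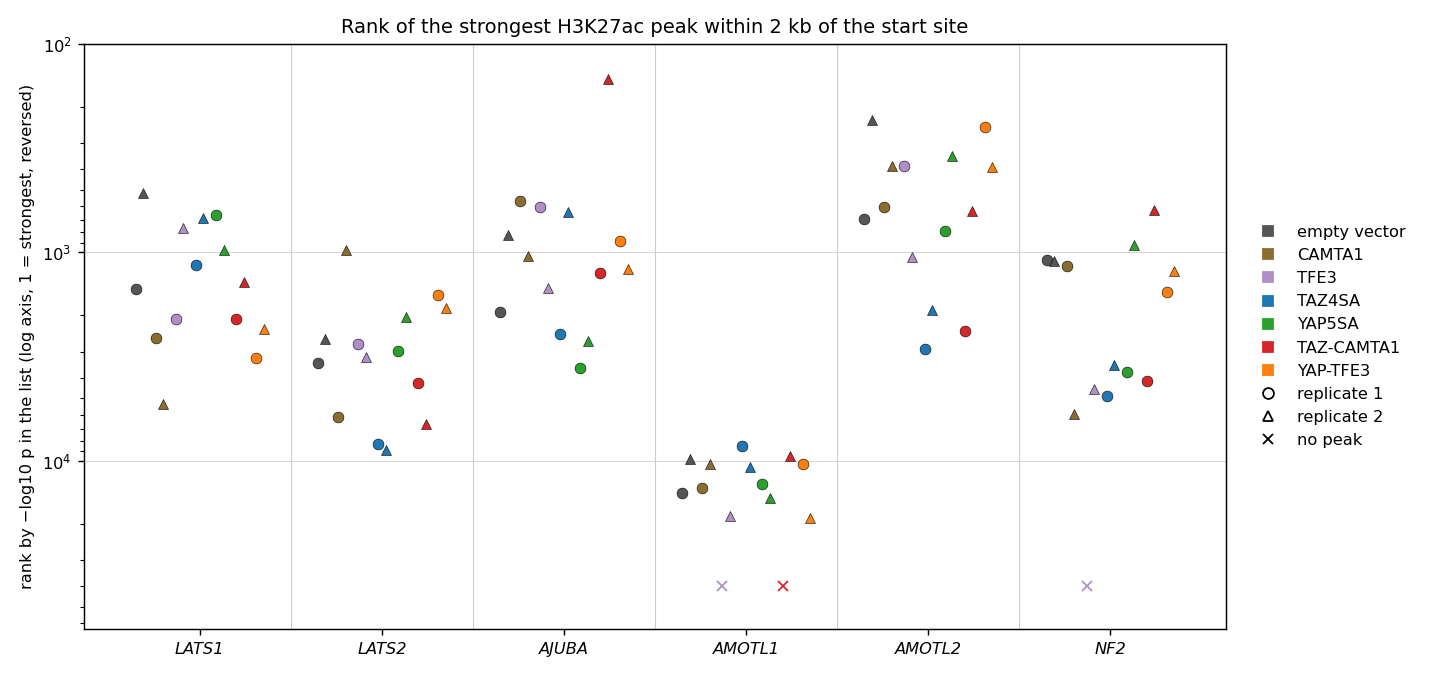
Rank by −log10 p of the strongest promoter peak of each gene within each list, on a reversed log axis so that strong peaks stand high, with crosses for lists without a promoter peak. AMOTL1, with ranks between 8460 and 18701, lay below LATS2 in each of the 12 lists that held both, and AMOTL2 lay between 232 and 2907.

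The kinase gene LATS1 (start site at hg19 chr6, 150039392, minus strand) had promoter ranks from 521 to 5341, with a median width of 2640 bp and a median fold enrichment at the summit of 15.3. Ranks were 1491 and 521 in the libraries labelled empty vector, 1150 and 684 in TAZ4SA, 665 and 969 in YAP5SA, 2083 and 1387 in TAZ-CAMTA1, and 3194 and 2335 in YAP-TFE3. The partners gave 2561 and 5341 in CAMTA1 and 2088 and 767 in TFE3. The 4 fusion libraries, at 1387 to 3194, therefore lay below the 4 libraries with an active form, at 665 to 1150, with no overlap. The difference in mean log2 rank, fusions minus active forms, was 1.35 (log2 ranks 11.07 ± 0.50 and 9.72 ± 0.39, SD, n = 4 each), with p = 0.0286 in the exact two-sided permutation test. This is the smallest p that 4 against 4 allows. With Benjamini-Hochberg adjustment over the 3273 features tested, the exact permutation test gave an adjusted p of 0.194. Of all features 14.8% had an unadjusted p below 0.05 in the same comparison, and 0% passed after adjustment. With permutations kept within replicate numbers the LATS1 difference had an exact permutation p of 0.0556 (adjusted p = 0.285). That is the smallest p which these permutations allow, so no feature could fall below 0.05 there. Relative to list length the fusion libraries stood at 2.87% to 9.58% and the active forms at 0.691% to 3.20%, which overlap, with a difference of 1.85 on the log2 scale and an exact permutation p of 0.0571 (adjusted p = 0.285). On that scale 14.1% of features had an unadjusted p below 0.05 and 0% passed after adjustment. By the peak names this difference was 0.0060 with an exact permutation p of 0.971, where 13.3% of features were below 0.05.

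Between the 8 libraries labelled with a TAZ or YAP construct and the other 6, LATS1 ranks differed by −0.25 on the log2 scale (exact two-sided permutation p = 0.651), and by −0.85 as a percent of the list (exact permutation p = 0.343). By the peak names the same comparison gave 1.33, a lower place with TAZ or YAP in the name, with an unadjusted exact permutation p of 0.00699 and an adjusted p of 0.393. There 9.72% of features had an unadjusted p below 0.05 and 0% passed after adjustment. The LATS1 values are the same in both readings and only the grouping changed, which moved the result across the 0.05 line before adjustment.

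The other kinase gene, LATS2 (start site at chr13, 21635722, minus strand), had the narrowest promoter peaks, with a median of 1287 bp and a range of 349 to 2302 bp. Its promoter ranked 3403 and 2601 in the libraries labelled empty vector, 8332 and 8912 in TAZ4SA, 4242 and 6633 in TAZ-CAMTA1, and 6133 and 970 in CAMTA1. The YAP side gave 2977 and 2040 in YAP5SA, 1601 and 1853 in YAP-TFE3, and 2739 and 3187 in TFE3. By rank, replicates were close at this gene except in CAMTA1, the label with the widest gap. As a percent of the list the TFE3 libraries were further apart, at 47.9% and 6.74%, beside 12.8% and 3.10% in CAMTA1. The share of the variance of log2 rank that lay between labels was 64.7% (exact one-sided test over all 135135 pairings of the lists, p = 0.178, adjusted p = 0.367). Without CAMTA1 1 it was 95.4% (exact p = 0.000237, adjusted p = 0.0648), and without CAMTA1 2 it was 94.0% (exact p = 0.00323, adjusted p = 0.155). Neither passed after adjustment. In both cases CAMTA1 is left with 1 library, so the spread within labels comes from the other 6, and CAMTA1 is the label whose libraries were far apart. With ranks as a percent of the list the share between labels was 53.6% (exact p = 0.353, adjusted p = 0.547). The TAZ4SA libraries, with the worst LATS2 ranks, came from the longest lists, which held 102009 and 98992 peaks. Relative to those lists they were 8.17% and 9.003%, beside 7.94% and 5.22% with the empty vector.

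AJUBA (start site at chr14, 23451848, minus strand) had the widest promoter peak on the median. Its promoter peak was 7134 to 10560 bp wide in 13 lists and 2024 bp in TFE3 1, with a median of 7982.5 bp, and stood between places 57 and 1715 by width within its list. The summit lay 324 to 1480 bp downstream of the start. Ranks were 1934 and 828 in the libraries labelled empty vector, 2464 and 638 in TAZ4SA, 3569 and 2674 in YAP5SA, 1252 and 148 in TAZ-CAMTA1, and 883 and 1196 in YAP-TFE3. CAMTA1 gave 569 and 1046 and TFE3 gave 605 and 1480. The libraries labelled YAP5SA were the lowest pair, and TAZ-CAMTA1 2 held the best promoter rank of these genes in any list. Labels took 50.2% of the variance of log2 rank (exact p = 0.439, adjusted p = 0.582 over pairings), and 76.996% without TAZ-CAMTA1 1, which leaves that label with 1 library. Fusions minus active forms was −1.57 (log2 ranks 9.38 ± 1.46 and 10.94 ± 1.11, SD, n = 4 each, exact permutation p = 0.114), and by the peak names it was 0.36. It ran from −2.11 without TAZ4SA 2 to −0.84 without TAZ-CAMTA1 2, and as a percent of the list it was −1.07 (exact permutation p = 0.457).

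AMOTL2 (start site at chr3, 134093300, minus strand) had the strongest promoter on the median and the most variable width. Its promoter peak was 25467 and 23545 bp wide in the libraries labelled TAZ4SA and 21910 bp in TAZ-CAMTA1 2, where it was the 30th widest of 48372 peaks. It was 8306 bp in YAP-TFE3 1, 1119 bp in TFE3 1, and between 2624 and 4892 bp in the 9 other lists. Coverage of the first 25 kb downstream varied widely between lists. Of the 25 kb downstream of the start, peaks covered 95.2% and 92.1% in TAZ4SA with 2 and 3 peaks, and 84.1% in TAZ-CAMTA1 2 with 3. In the libraries labelled empty vector they covered 45.6% and 73.9% with 8 and 6 peaks, and in YAP-TFE3 82.1% and 71.0% with 7 and 6. Coverage was 29.1% in TAZ-CAMTA1 1, 37.5% and 45.5% in YAP5SA, 74.5% and 39.8% in CAMTA1, and 5.71% and 64.4% in TFE3, so replicates were far apart in several labels. The median over lists was 67.7%. The 3 lists with an AMOTL2 peak over 20 kb were those with the highest coverage of this stretch, ahead of YAP-TFE3 1. Those peaks themselves span most of the stretch, so width and coverage there count the same bases. By rank alone, place ran against width in TAZ4SA, where the broad peak stood at 2907 and 1891, the worst and the third worst of the 14 lists. These are the longest lists, and relative to them the peak stood at 2.85% and 1.91%. TAZ-CAMTA1 1 and TFE3 1 were placed worse on that scale, at 10.9% and 6.71%. The other ranks were 694 and 232 with the empty vector, 788 and 344 in YAP5SA, 2377 and 632 in TAZ-CAMTA1, 251 and 389 in YAP-TFE3, 606 and 386 in CAMTA1, and 384 and 1057 in TFE3. Labels took 69.2% of the variance of log2 rank (exact p = 0.132, adjusted p = 0.320 over pairings).

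**Figure D3:**
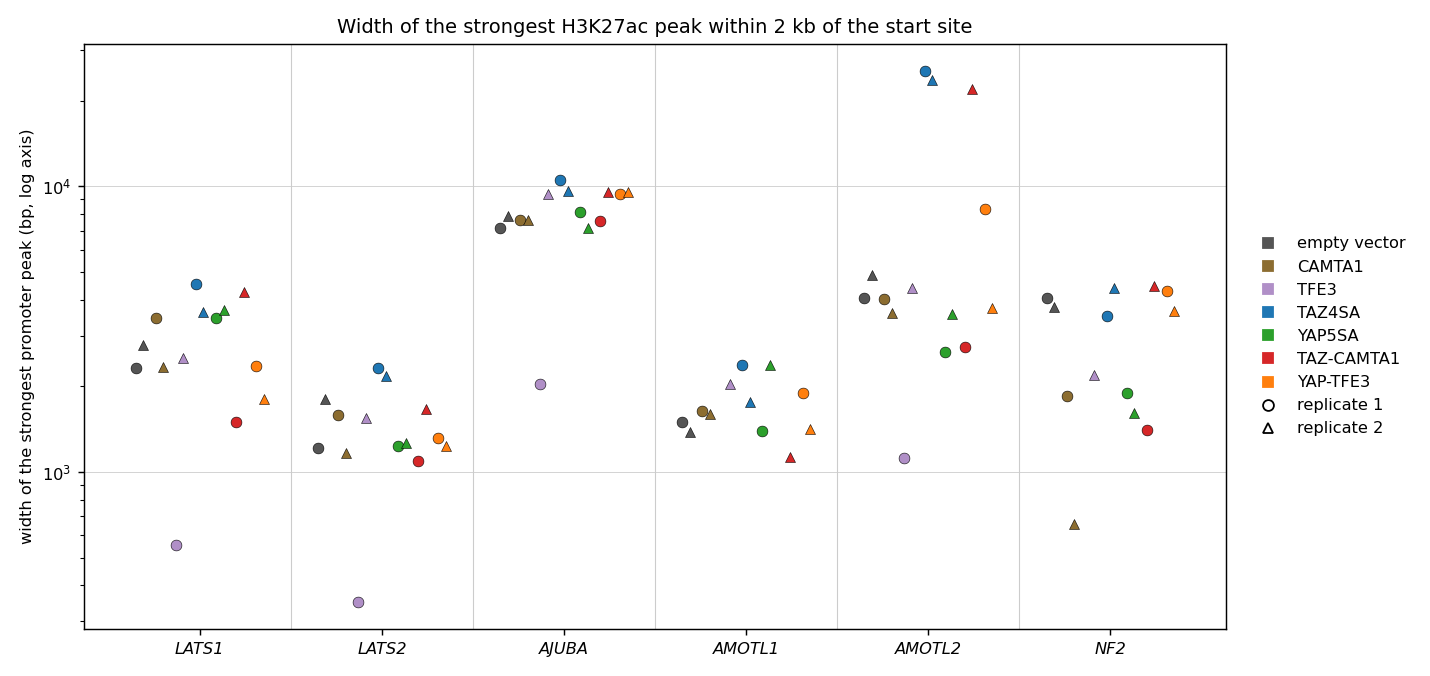
Width in bp, on a log axis, of the strongest promoter peak of each gene in each list, coloured by label with a symbol for each replicate. AJUBA stayed between 7134 and 10560 bp in all lists but TFE3 1, while AMOTL2 exceeded 20 kb in 3 lists.

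AMOTL1 (start site at chr11, 94501497, plus strand) had the weakest promoter peak at the start site used, with a median fold enrichment of 5.80 against 19.2 at its paralogue AMOTL2. Ranks were 14257 and 9840 with the empty vector, 8460 and 10682 in TAZ4SA, 12928 and 15147 in YAP5SA, and 10302 and 18701 in YAP-TFE3. They were 13454 and 10388 in CAMTA1, 9475 in TAZ-CAMTA1 2 and 18392 in TFE3 2. A distal region 25567 to 39941 bp upstream (hg19 chr11:94459881-94476061) had a peak in 14 of 14 lists, also in both lists without a promoter peak. It ranked ahead of the promoter in 12 of the 12 lists that held both, with a median rank of 4828. At the distal regions named below for the other genes the same count was 4 of 13 at NF2, 3 of 14 at AJUBA, 3 of 13 at AMOTL2, 1 of 13 at LATS1 and 0 of 11 at LATS2. RefSeq places the start of its gene record further upstream than the promoter it tables. Peaks at that start were not ranked, so the promoter values hold only for the start site used. Whether the distal region lies within the gene record was not determined.

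NF2 (start site at chr22, 29999545, plus strand) had promoter ranks of 1088 and 1102 with the empty vector, 4872 and 3471 in TAZ4SA, 3750 and 917 in YAP5SA, 4144 and 629 in TAZ-CAMTA1, and 1540 and 1230 in YAP-TFE3. CAMTA1 gave 1164 and 5926, and TFE3 2 gave 4508. The replicates of 3 labels were far apart. In the 13 lists with a peak, labels took 41.4% of the variance of log2 rank (exact p = 0.660, adjusted p = 0.754 over pairings). Of the 8420 features with a summit in these lists 21.4% had an unadjusted p below 0.05 there. Fusions minus active forms was −0.89 (exact permutation p = 0.343, beside 17.7% of features below 0.05) and 1.08 by the peak names. TAZ or YAP constructs minus the rest was −0.02 (exact permutation p = 0.972, beside 5.42%). With ranks as a percent of the list the share between labels was 25.7% (exact p = 0.885), fusions minus active forms −0.39 (exact permutation p = 0.686) and TAZ or YAP constructs minus the rest −0.13 (exact permutation p = 0.870).

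Over the genes together, 0 of the 4 with a promoter peak in every list passed for a share of variance between labels, and 0 had an unadjusted p below 0.05, in the exact pairing test. Of the 3273 features 0.55% passed after adjustment and 22.7% before. Between TAZ or YAP constructs and the rest, 0 of 4 passed in the exact permutation test and 0 had an unadjusted p below 0.05, beside 0% and 6.32% of features. The differences were 0.43 at LATS2, 0.23 at AJUBA and 0.73 at AMOTL2 on the log2 scale of rank, in 8 against 6 libraries, with exact permutation p of 0.420, 0.743 and 0.252. Leaving out 1 library moved LATS2 between 0.12 (without CAMTA1 2) and 0.65 (without CAMTA1 1) and AMOTL2 between 0.47 (without TAZ4SA 1) and 0.98 (without YAP-TFE3 1). By the peak names the differences at LATS2, AJUBA and AMOTL2 turned to −0.48, −1.17 and −0.43. Taken as a percent of the list they were −0.17, −0.37 and 0.13, beside 2.72% of features with an unadjusted p below 0.05. Between labels 11.9% were below 0.05 on that scale, and 0 of the 4 genes were. In the comparison of fusions with active forms, 0 of 4 passed and 1, LATS1, had an unadjusted p below 0.05, beside 0% and 14.8% of features. Within replicate numbers 0 of 4 were below 0.05, a count fixed in advance, since the permutations kept there allow no p below 0.05.

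Single constructs had 2 libraries each, so the smallest two-sided exact p was 0.333 and the ranks are given as separated or not. Only the 4 genes with a promoter peak in every list were scored. Against TAZ4SA, both TAZ-CAMTA1 libraries ranked LATS2 better (16.3% of features were separated in that direction) and LATS1 worse (33.5%). Against YAP5SA, both YAP-TFE3 libraries ranked LATS2 and AJUBA better (17.9%) and LATS1 worse (42.3%). Against its own partner, TAZ-CAMTA1 ranked LATS1 better than CAMTA1 (11.7%) and AMOTL2 worse (30.9%), and YAP-TFE3 ranked LATS2 better than TFE3 (10.7%) and LATS1 worse (39.8%).

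These separations depended on the scale and on the naming. As a percent of the list, TAZ-CAMTA1 ranked both LATS1 and LATS2 worse than TAZ4SA (78% of features), so LATS2 turned, and it ranked LATS2 and AMOTL2 worse than CAMTA1 (30.1%). On that scale YAP-TFE3 ranked LATS2, AJUBA and AMOTL2 better than YAP5SA (31.8%) and LATS1 worse (21%), and it ranked LATS2, AJUBA and AMOTL2 better than TFE3 (21.4%). LATS1 below the active form with both fusions, and LATS2 and AJUBA above it with YAP-TFE3, held on both scales. By the peak names and ranks, TAZ-CAMTA1 ranked AMOTL2 better (30.9%) and LATS1 worse (11.7%) than TAZ4SA, and LATS1 worse than CAMTA1 (18.1%). YAP-TFE3 by name ranked LATS1 better (39.8%) and LATS2 worse (10.7%) than YAP5SA, the reverse of the labels, and AJUBA better than TFE3 (22.4%). With percent of the list under the peak names, TAZ-CAMTA1 ranked LATS2 and AMOTL2 better than TAZ4SA (30.1%), with none worse, and LATS1 worse than CAMTA1 (22.8%). YAP-TFE3 ranked LATS2, AJUBA and AMOTL2 worse than YAP5SA (21.4%), and no gene was separated from TFE3, where 0.672% of features were better and 16% worse.

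The libraries labelled empty vector served all 6 comparisons with a construct, so these are not independent of each other. LATS2 ranked worse in TAZ4SA (30.4%) and TAZ-CAMTA1 (28.8%) and better in YAP-TFE3 (13.9%). AMOTL2 also ranked worse in TAZ4SA. LATS1 ranked worse in YAP-TFE3 (34.6%) and CAMTA1 (18.1%), and AJUBA ranked worse in YAP5SA (22.1%). In TFE3 no gene was separated, against 28.8% of features better and 14.7% worse. As a percent of the list the same genes were separated in the same direction, and AMOTL2 was also worse in TFE3 (29.9%). The background on that scale was 6.08% for worse in TAZ4SA, 44.2% in YAP5SA, 41.2% in TAZ-CAMTA1, 31.1% in YAP-TFE3 and 22.8% in CAMTA1, and 14.4% for better in YAP-TFE3. NF2 was not scored, and these shares are of features with a summit in every list, which NF2 lacks. Its ranks were also worse in TAZ4SA, YAP-TFE3 and CAMTA1 than with the empty vector. As a percent of the list it stood at 2.54% and 2.21% with the empty vector, and at 4.78% and 3.51% in TAZ4SA. It stood at 2.68% and 3.10% in YAP-TFE3, and at 2.43% and 18.9% in CAMTA1, which overlaps the empty vector. By the peak names, the lists named empty vector were those labelled TAZ4SA, and LATS2 ranked better than there under all 6 other names. AMOTL2 did so under YAP5SA (23.5%), TAZ-CAMTA1 (29.4%), YAP-TFE3 (35.5%), CAMTA1 (30.4%) and TFE3 (37.2%), but not under TAZ4SA (16.3%). LATS1 ranked worse than in the lists named empty vector under TAZ4SA (33.5%), YAP5SA (39.4%) and TAZ-CAMTA1 (23.7%), and AJUBA under TFE3 (27.3%). On the percent scale the peak names gave LATS2 and AMOTL2 better than the empty vector under YAP5SA (8%) and CAMTA1 (6.08%), and AMOTL2 better under TAZ-CAMTA1 (3.3%). LATS1 was worse under TAZ4SA (78%), YAP5SA (69.5%), TAZ-CAMTA1 (69%), YAP-TFE3 (72.3%) and TFE3 (76.6%). LATS2 was also worse under TAZ4SA, and AJUBA under YAP-TFE3 and TFE3.

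Away from the promoters, the peaks of the 14 lists merged into 111 regions within 50 kb, of which 104 were distal. Most distal regions were rare, with 66 in a single list, of which 26 were in TAZ4SA 1 and 19 in TAZ4SA 2, the longest lists. There were 9 distal regions in 12 lists or more, and 3 of them stood at NF2. Exon and intron positions are not given because no annotation of this build was used.

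The distal region of NF2 found in 14 of 14 lists lay 11153 to 33410 bp downstream of the start (chr22:30010415-30033569). It ranked 597 and 1724 in TAZ-CAMTA1 and 217 and 1159 in YAP-TFE3. With the active forms it ranked 9967 and 10805 in TAZ4SA and 10842 and 5015 in YAP5SA, and it ranked 2155 to 9142 in the 6 other lists. The 4 lists labelled as fusions thus held the best 4 ranks of 14. These lists carry TAZ4SA and YAP5SA in their peak names. At AMOTL2 the distal region in most lists, 39931 to 48569 bp downstream of the start (chr3:134040397-134054588, all lists but TFE3 1), ranked 1201 and 178 in TAZ-CAMTA1 and 348 and 316 in YAP-TFE3. It ranked 4855 and 6217 in TAZ4SA, 11671 and 2635 in YAP5SA, and 1141 to 4416 in the 5 other lists. Fusions and active forms did not overlap at either region by rank. As a percent of the list they did not overlap at NF2 (0.377% to 3.56% with the fusions, 9.77% to 34.9% with the active forms, 4.85% or more elsewhere) but did at AMOTL2 (0.368% to 5.52% and 4.76% to 37.5%). Of 2431 merged regions of at least 10 kb with a peak in all 8 of these lists, 17.6% were separated in this direction and 6.17% in the other, and of all 11132 such regions 10.3% and 9.24%. On the percent scale 4.85% and 3.5% of the 2431 were. The pattern was seen after the values were known and was not tested.

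AJUBA, LATS1 and LATS2 also had a distal region in 11 lists or more. At AJUBA a region 24193 to 27938 bp upstream, on the side of C14orf93 (chr14:23474538-23480716), had a peak in 14 of 14 lists at a median rank of 3464.5 and outranked the promoter in 3 lists. At LATS1 a region 27279 to 34256 bp upstream, on the side of NUP43 (chr6:150066158-150074040), was in all lists but TFE3 1 at a median rank of 9784 and outranked the promoter only in CAMTA1 2. At LATS2 a region 43715 to 47196 bp downstream (chr13:21587259-21592313) was in 11 lists at a median rank of 19470. Its ranks were 11313 to 16869 with the active forms and 23623 to 27643 in the 3 fusion lists that held it, which overlap as a percent of the list (11.4% to 47.6% and 41.1% to 69.7%). Of the 11132 regions with a peak in all 8 lists 9.24% ranked worse in every fusion list, but the LATS2 region had no peak in TAZ-CAMTA1 1 and is not among them.

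The flanks of the start sites were covered unequally. At AMOTL2 peaks covered a median of 48.6% of the 50 kb downstream and 2.67% of the 50 kb upstream. LATS2, AJUBA and NF2 were also covered more downstream in 14 of 14 lists, as was AMOTL2, whereas LATS1 and AMOTL1 were covered more downstream in 1 of 14. Over both sides the median share covered was 25.7% at AMOTL2, 21.8% at AMOTL1, 20.3% at NF2, 14.1% at AJUBA, 6.96% at LATS1 and 3.27% at LATS2. Counted as summits per 10000 peaks of a list, 1.62% of the 11746 tiles of 100 kb had a higher median than the window of AMOTL1, 5.81% than NF2 and 7.56% than AMOTL2. AMOTL1, with the weakest promoter peak at the start site used, thus had the highest median share of summits of the 6. For the share of summits between labels, 0 of the 6 genes passed the exact pairing test after adjustment and 0 had an unadjusted p below 0.05 (exact p between 0.235 and 0.802), beside 0% of features after adjustment and 13.7% before. Without TFE3 2 the share of variance at AJUBA moved from 37.4% to 83.4%. Without TAZ-CAMTA1 2 it moved from 29.9% to 67.9% at NF2 and from 42.4% to 68.5% at AMOTL2, and without TFE3 2 from 40.3% to 60.8% at LATS2. Each of these leaves a label with 1 library, so the spread within labels comes from the other 6. In windows of 25 kb the LATS1 share of variance was 66.9% (exact p = 0.0211, adjusted p = 0.377), where 11.6% of features had an unadjusted p below 0.05. Measured as base pairs covered, 3 of the 6 had an unadjusted p below 0.05, beside 24.3% of features, and 0 passed after adjustment. The share of variance between labels was then 84.5% at LATS1 (exact p = 0.00973, adjusted p = 0.111), 83.7% at AMOTL2 (exact p = 0.0215, adjusted p = 0.150) and 82.7% at NF2 (exact p = 0.00733, adjusted p = 0.102), against 29.9% at NF2 by summits. Between TAZ or YAP constructs and the rest, 0 of 6 passed and 0 had an unadjusted exact permutation p below 0.05 (0.114 to 0.833), beside 0% and 7.43%. LATS1 fell below 0.05 before adjustment in 2 alternatives, at −0.37 in windows of 25 kb (exact permutation p = 0.00533, adjusted p = 0.654, beside 6.34% of features) and at −0.58 with peaks within 1000 bp stitched (exact permutation p = 0.0246, adjusted p = 0.684, beside 7.02%).

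**Figure D4:**
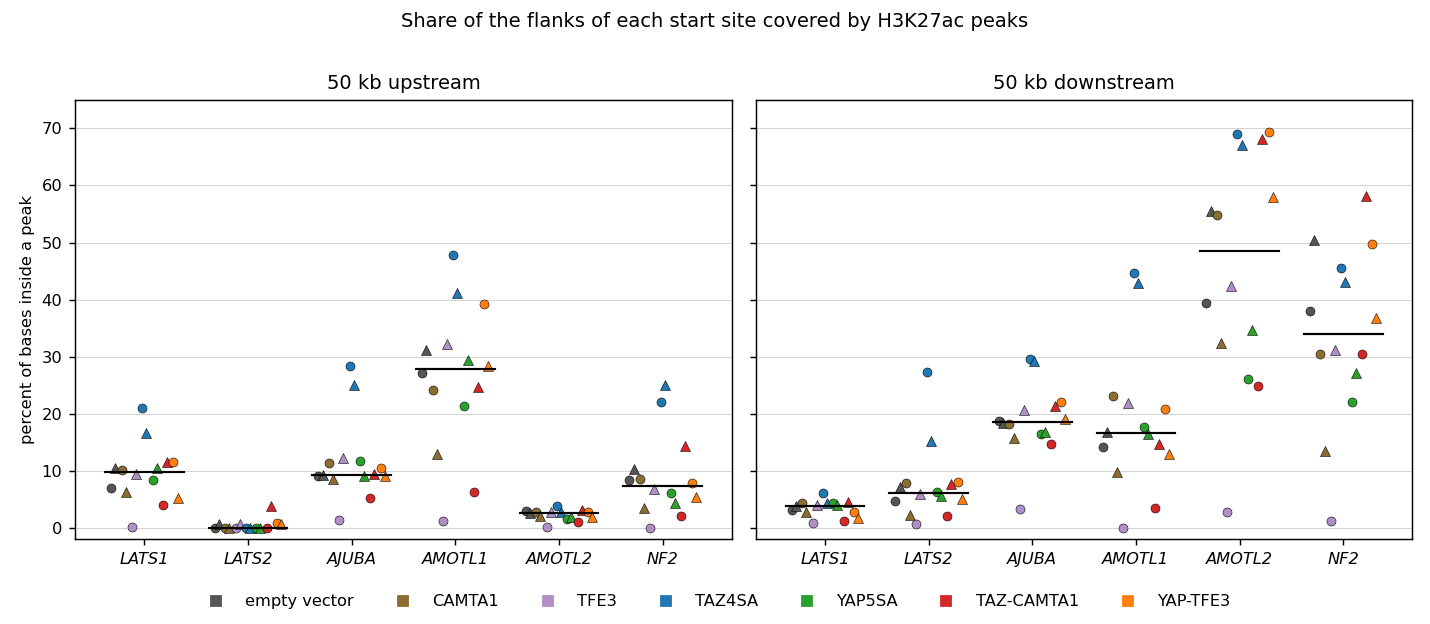
Percent of bases inside a peak in the 50 kb upstream (left) and downstream (right) of each start site, with a point for each list, coloured by label, and a bar at the median of the 14 lists. AMOTL2 had a median of 48.6% downstream and 2.67% upstream, and AMOTL1 was covered more upstream in 13 of 14 lists.

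The summits of the promoter peaks sat just inside the genes. The strongest promoter peak had its summit downstream of the start in 80 of 81 cases, the exception being LATS1 in CAMTA1 2, 72 bp upstream. The share over other promoters was not computed for this either. The median distance was 190.5 bp at AMOTL2, 230.5 bp at LATS2, 266 bp at NF2, 312.5 bp at LATS1, 565 bp at AMOTL1 and 1028 bp at AJUBA.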

How the data were processed

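H3K27ac ChIP-seq peak lists of 14 libraries were used, without the 14 input libraries. According to the methods and the labels, the authors aligned trimmed reads to GRCh37 with BWA, dropped reads that mapped to several places or to greylisted regions, and ran MACS2 for peaks. The deposited lists hold a −log10 p-value, a −log10 q-value, a fold enrichment (a ratio over local background) and a score made by the peak caller. The −log10 p, the fold ratio, the interval and the summit position were used, with −log10 q as a filter and the construct in the peak names for a second grouping. The methods state a q limit of 0.1 and pooling, whereas the lists are separate for each library and reach a q of 0.05. Read depth is not in the lists, and no interval for counting error was made.

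Peaks were ranked within each list, and the strongest summit within 2 kb of each start site was compared on the log2 scale of rank. Tiles of 4 kb with a summit in every list (for 50 kb windows, tiles of 100 kb in at least 7 lists) served as the other features. AMOTL1 and NF2, each lacking a promoter peak in some list, were not in these tests, and NF2 was tested on 13 lists, which was chosen after seeing the data, as was the repeat of the rank comparisons with ranks as a percent of the list. Tests were exact permutations of labels, with Benjamini-Hochberg adjustment over all features and a threshold of 0.05. P-values measure only the spread between these libraries. Replicate numbers did not pair libraries, since 1 of 21 pairs of labels had deviations correlated above 0.1 (median r 0.0282). The tests were tried on simulated data. Members, lists and windows were chosen with earlier results of these data known. The text names the distal region of each gene with a peak in most lists, ties by median rank. Motifs were searched in RefSeq promoter windows (GRCh38.p14). No gene annotation of the lists' build was used, so a wider pathway list, marker genes of the cell line and genes with the most similar pattern were not analysed here. Python 3.11.15, numpy 2.4.6, pandas 2.3.3 and matplotlib 3.10.9 were used.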

Additional observations from a re-analysis of the deposited data

Results flagged for a closer look

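Among 94 checks of a gene's rank, width or coverage in a group of libraries, 10 had a library far from the rest, where about 1 in 20 would be flagged in any case. TFE3 1, the list with 5721 peaks, accounted for 7 of them. In the group of the empty vector, CAMTA1 and TFE3 its promoter peak was 555 bp wide at LATS1, 349 bp at LATS2, 2024 bp at AJUBA and 1119 bp at AMOTL2. In the same list the window of LATS2 held 1.75 summits per 10000 peaks, that of AJUBA held 3.5, and peaks covered 2.4% of the AJUBA window. Among the fusions, TAZ-CAMTA1 2 stood out at AJUBA with rank 148. TAZ-CAMTA1 1 stood out with an AJUBA peak of 7592 bp, narrower than the 3 others, and with 5.06 summits per 10000 peaks at AMOTL2.

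In 4 cases the TAZ side and the YAP side moved in opposite directions, with both libraries of each label separated; these differences were not tested. The LATS1 promoter ranked better in TAZ-CAMTA1 than in CAMTA1 and worse in YAP-TFE3 than in TFE3 (log2 rank differences of −1.12 and 1.11, which are −2.23 apart); as a percent of the list neither pair was separated. The AJUBA peak was narrower in TAZ-CAMTA1 than in TAZ4SA and wider in YAP-TFE3 than in YAP5SA (log2 widths −0.24 and 0.32, −0.558 apart), and coverage of its window moved the same way (−15.4 and 1.66 percentage points, −17.1 apart). The AMOTL2 peak did likewise (log2 widths −1.66 and 0.87, −2.53 apart). The TAZ-CAMTA1 lists (21748 and 48372 peaks) were shorter than those of TAZ4SA (102009 and 98992), and the YAP-TFE3 lists (57505 and 39653) longer than those of YAP5SA (31086 and 30236). The part of list length in these widths and coverages was not tested, and no share of all features was computed for them. Under the peak names these labels stand for other constructs.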

How the results depend on the processing

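No gene passed the adjusted threshold under any alternative, so no count of passing genes moved. Beyond leaving out libraries, 22 values turned direction and 135 did not. For promoter rank, TAZ or YAP constructs against the rest, LATS1 turned to 0.0399 when ranked by fold. With groups from the peak names it was 1.33, LATS2 −0.48, AJUBA −1.17, AMOTL2 −0.43 and NF2 0.0169. With rank as a percent of the list, chosen after seeing the data, LATS2 turned to −0.172 and AJUBA to −0.365. For fusions against active forms, the peak names turned AJUBA to 0.36 and NF2 to 1.08. For the share of summits, TAZ or YAP constructs against the rest, AMOTL1 turned to 0.0526 by base pairs covered, 0.453 at a −log10 q of at least 5, 0.364 with equal numbers of strongest peaks and 0.0268 in 25 kb windows. LATS2 turned to −0.297, −0.364 and −0.104 under those last 3, and to −0.0137 with peaks within 1000 bp stitched. NF2 turned to −0.441 at the −log10 q limit and −0.0121 in 25 kb windows. By the peak names LATS1 was 0.185 and AMOTL2 0.806. The cause of these turns was not tested.

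Leaving out 1 library turned 8 values and kept 304. For TAZ or YAP constructs against the rest, promoter rank ran from −0.575 to 0.0968 at LATS1 (turned without CAMTA1 2) and from −0.00213 to 0.654 at AJUBA (without YAP5SA 1). The share of summits ran from −0.346 to 0.186 at AJUBA (without TFE3 1), −0.672 to 0.0887 at AMOTL2 (without CAMTA1 2) and −0.236 to 0.299 at NF2 (without TAZ-CAMTA1 1, YAP5SA 1 or either TFE3 library). The LATS1 difference between fusions and active forms ran from 1.16 to 1.56, with adjusted exact permutation p of 0.162 to 0.991 over all its alternatives, those on 13 lists included. Without empty vector 1, which leaves that label with 1 library, the LATS1 share of variance of rank between labels was 81.5%. Presence of a promoter peak ran from 75 to 77 of 78 without a library. It was 81 of 84 at a −log10 q of at least 5 and in a 5 kb window, 69 in a 1 kb window and 64 with equal numbers of strongest peaks. In the 1 kb window 3 of the genes could be tested.

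The replicate block, permuting within replicate numbers, changed no call after adjustment. With it the LATS1 difference between fusions and active forms had an exact permutation p of 0.0556 (adjusted p = 0.285). That is the smallest p that this comparison allows within replicate numbers. The genes below 0.05 before adjustment therefore had to go from 1 to 0. The LATS1 share of variance between labels was 76.6% (exact permutation p = 0.0692, adjusted p = 0.258), and 0 genes passed in each comparison.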
